A study of Homo sapiens with 12 samples.

Results

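The genes described here are 39 genes of ribosome biogenesis, among them 6 for RNA polymerase I and its transcription factors, taken by symbol from the 44147 gene features of the series. The other 33 are 4 box C/D and 4 box H/ACA small nucleolar ribonucleoprotein (snoRNP) genes, 5 genes of abundant nucleolar proteins, 8 small subunit processing factors and 12 large subunit processing factors. Each of the 39 was measured in each of 12 RNA-seq libraries and passed the filter on low counts, which kept 23045 genes. The series used CCRF-CEM, a human T lymphoblast leukaemia line. It compared SLFN11-knockout cells made from that line with the wild-type parent cells. SLFN11 is a protein that blocks stressed replication forks. Cells of each genotype received prexasertib, which inhibits the checkpoint kinase CHK1, at 100 nM for 6 h, or DMSO, its solvent. The 4 groups were therefore knockout cells with prexasertib, knockout cells with DMSO, parent cells with prexasertib and parent cells with DMSO, with 3 libraries each. The labels do not say whether the knockout line is 1 clone, nor whether the 3 libraries of a group are separate cultures. The p-values therefore rest on the scatter among libraries, which may be technical.

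The treatment labels carry a conflict that touches each comparison. Each of the 12 records has a title whose library name belongs to a file deposited under the opposite treatment of that line. A file's values are reported under the treatment of the record to which it is attached. If the library names hold instead, each prexasertib difference and each difference of differences changes sign, and the 2 comparisons of knockout with parent cells swap their treatment. JUN, an AP-1 factor gene, had 57.0, 58.5 and 61.7 CPM (read counts scaled to a common library size) in parent cells with prexasertib and 509, 546 and 536 CPM in parent cells with DMSO. It had 51.8, 58.1 and 51.1 CPM in knockout cells with prexasertib and 87.3, 96.9 and 98.3 CPM in knockout cells with DMSO. JUN was thus lower under the prexasertib label in both lines, at -3.17 in parent cells (edgeR adjusted p = 2.88e-22) and -0.81 in knockout cells (adjusted p = 1.11e-10) on the log2 scale, and no measurement was used to choose between the labels. The knockout labels were only weakly checked by the target: SLFN11 had 85.0, 90.7 and 89.4 CPM in knockout cells with prexasertib and 116, 119 and 117 CPM in parent cells with prexasertib. It had 65.9, 66.6 and 69.1 CPM in knockout cells with DMSO and 100.4, 91.2 and 95.2 CPM in parent cells with DMSO. SLFN11 RNA was thus lower in the knockout libraries but still read.

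Ribosome assembly starts in the nucleolus, where RNA polymerase I, held at the ribosomal DNA by UBTF and RRN3, makes 1 long precursor of most ribosomal RNAs. Box C/D snoRNPs guide methylation and box H/ACA snoRNPs guide pseudouridylation of that precursor. Separate sets of processing factors then cut and fold it into the small and the large subunit. Leukaemia cells that divide fast make many ribosomes, and MYC is known to activate many of these genes. The values below are mRNA levels of the assembly machinery. They are not levels of ribosomal RNA.

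Exonic reads summed to 47887791 to 77548202 per library. The 12 T lymphoblast markers summed to 1821 to 1832 CPM in knockout cells with prexasertib, 1790.0 to 1815 CPM in knockout cells with DMSO, 1413 to 1541 CPM in parent cells with prexasertib and 1298 to 1311 CPM in parent cells with DMSO. Summed B cell markers were 29.25 to 32.55 CPM in knockout cells with prexasertib and 31.05 to 33.95 CPM with DMSO. In parent cells they were 19.39 to 22.55 CPM with prexasertib and 16.71 to 18.18 CPM with DMSO. MS4A1 was at 0 in each group, and CD22 in knockout cells with prexasertib. Summed epithelial and fibroblast markers were 11.91 to 12.76 CPM in knockout cells with prexasertib and 11.55 to 13.08 CPM with DMSO. In parent cells they were 3.094 to 3.74 CPM with prexasertib and 2.959 to 4.227 CPM with DMSO. COL1A2 was at 0 in 3 of the 4 groups, and KRT18 in both groups of knockout cells but not in those of parent cells. Summed myeloid markers were at most 1.67 CPM and erythroid markers at most 0.327 CPM. One library stood apart. Replicate 1 of parent cells with prexasertib had 30.3% of its gene reads in introns, against 23.9% to 26.4% in the other libraries. It lay below both other replicates of its group for 33 of the 39 genes (84.6%), against 41.8% of all genes tested. Calls that change when it is left out are given with the genes they touch. Summed T lymphoblast, B cell, and epithelial and fibroblast markers were thus higher in knockout cells, but single markers went the other way. Under DMSO edgeR called 7 of 12 T lymphoblast markers higher in knockout cells and 1 lower (19.6% and 20.4% of all genes). Of 3 B cell markers tested, 1 was higher and 1 lower. Of 3 epithelial and fibroblast markers tested, 1 was higher and 0 lower. The part of these markers in the comparisons of the lines was not tested.

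On the length-scaled scale of the deposited exonic TPM, in which read counts are divided by gene length, the 39 genes were among the more abundant of the cell. Their median level over 12 libraries was 23.7 TPM, against 3.21 TPM over all genes tested, and each lay between the 67.7th and the 98.8th percentile. NCL, which encodes nucleolin, had the highest mean level of the 39, 191.8 TPM ± 40.8 (SD, n = 12). NPM1, nucleophosmin, followed at 136.6 ± 22.1 TPM, and their ranges over 12 libraries overlapped. DDX21, a nucleolar RNA helicase, had 86.2 ± 7.79 TPM, and NOP56, a core box C/D protein, had 72.1 ± 10.4 TPM. The lowest were WDR12, a large subunit factor, at 7.94 ± 0.964 TPM, and DDX10, a small subunit helicase, at 7.53 ± 0.572 TPM. From FBL (52.2 TPM) down, each gene and the next in the order differed by less than the larger of their 2 SDs, except POLR1E and POLR1B. The RNA polymerase I subunits lay in the lower part. POLR1E had 16.8 ± 1.68 TPM, POLR1B 13.3 ± 2.46 TPM, POLR1C 8.94 ± 0.435 TPM and POLR1A 8.75 ± 1.02 TPM.

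**Figure D1:**
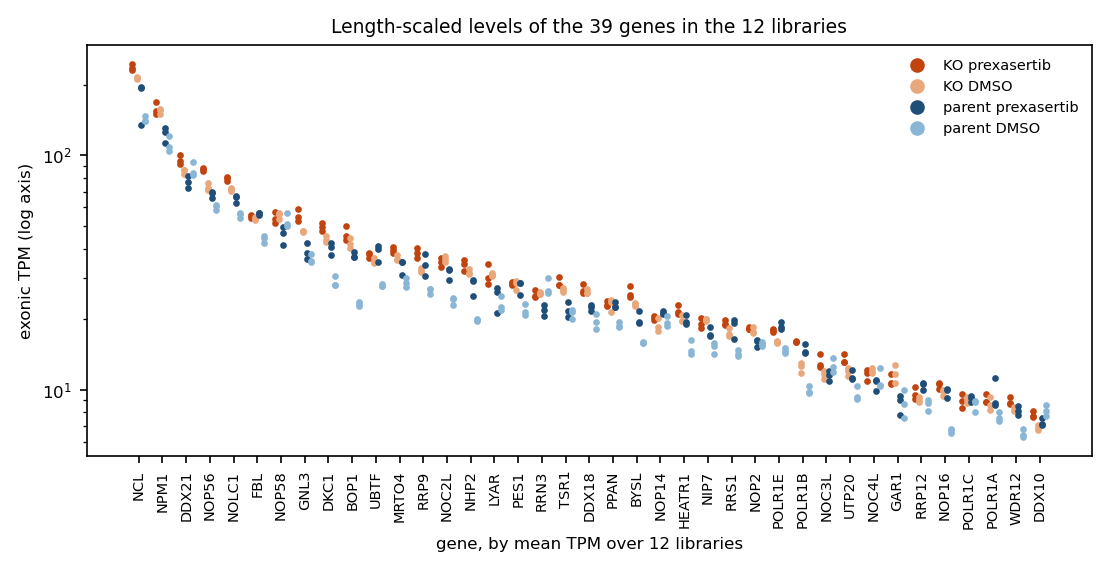
Exonic TPM (log axis) of the 39 genes in each of the 12 libraries, with genes ordered by their mean; each point is 1 library and each colour 1 group. NCL leads at a mean of 191.8 TPM and DDX10 is lowest at 7.53 TPM.

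Together the 39 genes took 0.544% ± 0.00642 of exonic reads in knockout cells with prexasertib and 0.505% ± 0.00115 in knockout cells with DMSO. They took 0.495% ± 0.0359 in parent cells with prexasertib and 0.451% ± 0.00459 in parent cells with DMSO (SD, n = 3 each). The 3 parent libraries with prexasertib held 0.454%, 0.517% and 0.515%, and the first of these lay within the range of parent cells with DMSO. These shares are of unscaled reads and weigh the most abundant genes most. NCL averaged 1016 CPM over 12 libraries, against 17.3 CPM for the lowest of the 39. A higher share therefore does not mean that most of the 39 genes were higher. In a bulk sample, fewer cells with a transcript and less RNA per cell cannot be told apart.

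Of the 4 groups, parent cells with DMSO most often lay outside the range of the other 9 libraries. They did so for 13 of the 39 genes, against 24.6% of all genes tested in either direction. Their 3 libraries were below all others for 8 genes, which were DKC1, NHP2, NOP16, BOP1, NOC2L, UBTF, BYSL and HEATR1. They were above all others for 5 genes, which were NOP58, NOC3L, DDX21, DDX10 and RRN3. Knockout cells with prexasertib were above all others for 8 genes (5.23% of all genes), which were NOP56, NCL, NOLC1, DKC1, UTP20, GNL3, BYSL and TSR1. They were below all others for 0 (4.39% of all genes). Parent cells with prexasertib were above all others for FBL, RRP12, POLR1A and POLR1E, 4 genes, against 5.16% of all genes, and below all others for 0 (4.76%). Knockout cells with DMSO were below all others for NOP14, DDX10 and POLR1E, 3 genes, against 3.31% of all genes, and above all others for 0 (3.47%).

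**Figure D2:**
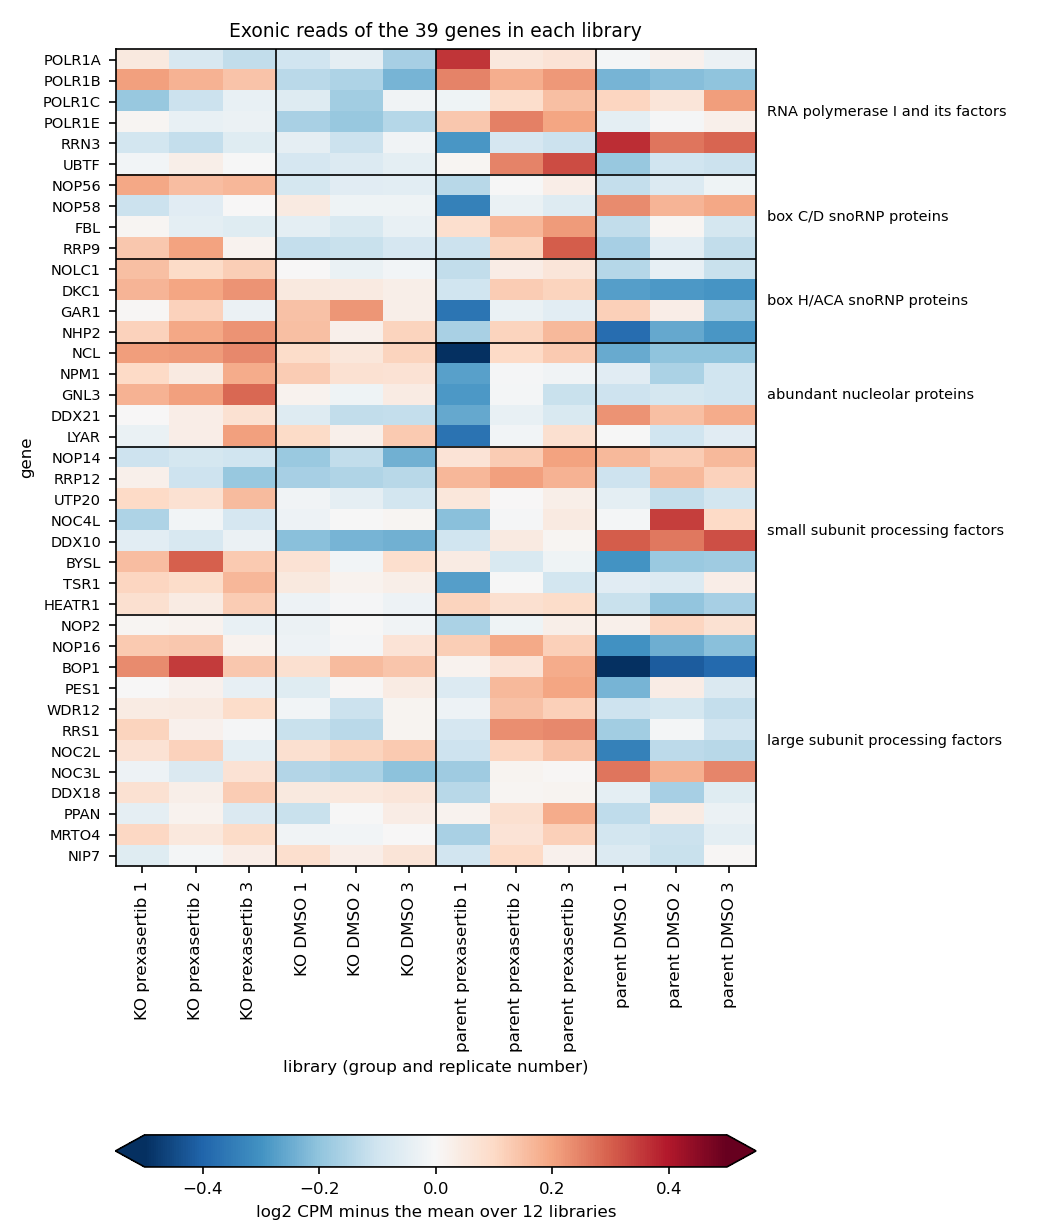
Each cell is log2 CPM of 1 gene in 1 library, less that gene's mean over 12 libraries; red is above and blue below the mean, values beyond 0.5 are drawn in the end colours, and genes are grouped by role. BOP1, NHP2 and DKC1 are low, and RRN3, DDX10 and NOC3L high, in the 3 libraries of parent cells with DMSO, and replicate 1 of parent cells with prexasertib lies below both other replicates of its group for 33 of the 39 genes.

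Prexasertib in parent cells changed the 39 genes in both directions, with more of them higher. With edgeR's quasi-likelihood test at a Benjamini-Hochberg adjusted p of 0.05 over all genes, 16 of 39 were higher, against 18.2% of all genes tested, and 6 were lower, against 18.2% of all genes. Highly read genes are called more often: of the 10096 genes with a mean of at least 10 CPM, which include the 39, 57.7% were called in either direction, so 22 of 39 was near the background of genes read as highly. The median log2 fold change over the 39 was 0.12, against 0.04 over all genes. The 3 libraries with prexasertib lay wholly above those with DMSO for 15 of the 39 genes (21.6% of all genes) and wholly below for 5 (21.8%). Without replicate 1 of parent cells with prexasertib, 19 were higher (17.1% of all genes) and 5 lower (19.5%). Without replicate 1 of parent cells with DMSO, 8 were higher (12.3% of all genes). On the TPM scale 24 were higher (27.6% of all genes) and 4 lower (10.9%). Of the 22 calls, 13 held in each of the 12 fits that left out 1 library.

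In knockout cells the calls were fewer and ran in 1 direction. The same test called 6 of 39 higher with prexasertib, against 6.11% of all genes tested, and 0 lower, against 6.83% of all genes. No gene of the 39 was lower at an unadjusted p of 0.05 either, nor by DESeq2's Wald test, while 13 were higher at that unadjusted p. The share of all genes at an unadjusted p of 0.05 was not counted. These counts, and those at that threshold for smaller sets below, therefore have no background to be read against. Among genes with at least 10 CPM, 22.2% were called in either direction. The median log2 fold change was 0.09, against -0.00 over all genes. For 19 of the 39 genes the 3 libraries with prexasertib lay wholly above those with DMSO (16.9% of all genes), and for 1, NIP7, wholly below (17.4%). The number called higher changed with the libraries in the fit. It was 14 without replicate 1 of parent cells with prexasertib (9.6% of all genes), a library of neither group compared, and 15 with the 2 knockout groups alone (2402 of 21529 genes tested). It was 2 without replicate 2 of knockout cells with DMSO (3.9% of all genes). It was 3 without replicate 3 of that group (3.6%), and 3 without replicate 1 (3.88%) or replicate 3 (4.05%) of knockout cells with prexasertib.

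**Figure D3:**
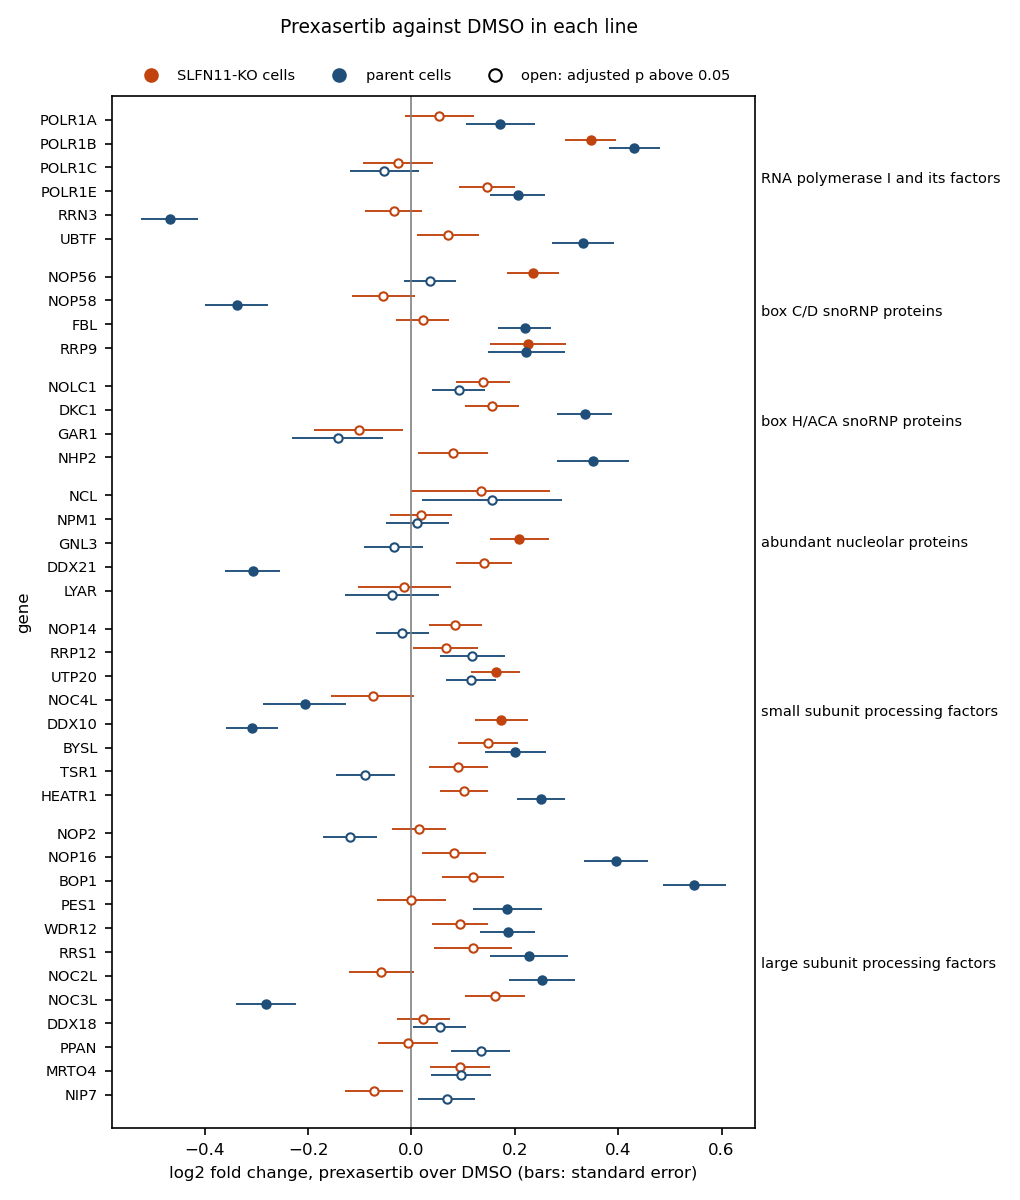
Log2 fold change of prexasertib over DMSO for the 39 genes, by role, in SLFN11-knockout cells (orange) and parent cells (blue), with standard errors; filled points passed an adjusted p of 0.05. Parent cells spread from -0.47 (RRN3) to 0.55 (BOP1), whereas the filled points of knockout cells all lie above 0.

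Among the RNA polymerase I genes, 4 of 6 were higher and 1 was lower with prexasertib in parent cells, and 1 of 6 was higher in knockout cells. This count and those by role below stand beside 18.2% of all genes higher and 18.2% lower in parent cells. In knockout cells the shares were 6.11% and 6.83%. Among genes with at least 10 CPM, 57.7% in parent and 22.2% in knockout cells were called in either direction. POLR1B encodes the second largest subunit, part of the catalytic centre (hg19 chr2:113299492-113334635). It had 73.8, 70.4 and 72.1 CPM in parent cells with prexasertib and 52.8, 53.6 and 54.1 CPM in parent cells with DMSO. In knockout cells it had 71.6, 70.1 and 68.5 CPM with prexasertib and 56.5, 55.9 and 52.9 CPM with DMSO. The treated libraries lay above the untreated ones in both lines with no overlap. Its log2 fold change was 0.43 ± 0.05 (SE) in parent cells (edgeR adjusted p = 9.27e-08) and 0.35 ± 0.05 in knockout cells (adjusted p = 1.44e-05). Both calls held in each fit that left out 1 library.

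POLR1A encodes the largest subunit. It had 128, 103 and 105 CPM in parent cells with prexasertib and 99.1, 101 and 97.8 CPM in parent cells with DMSO, so the first library was above the other 2 of its group. The log2 fold change was 0.17 ± 0.07 (edgeR adjusted p = 0.0463), and without that library it was 0.04 (adjusted p = 0.566). In knockout cells POLR1A had 103, 94.5 and 91.6 CPM with prexasertib and 93.2, 96.8 and 88.8 CPM with DMSO, and the groups overlapped. POLR1E, another subunit, was higher in parent cells by a log2 fold change of 0.21 ± 0.05 (adjusted p = 0.00341), a call lost without replicate 1 of parent cells with DMSO (adjusted p = 0.0543). Its value in knockout cells was 0.15 ± 0.05, which missed the threshold (adjusted p = 0.0789). POLR1C, a subunit that RNA polymerase III shares, passed in neither line, with -0.05 in parent cells and -0.03 in knockout cells.

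The 2 transcription factors of polymerase I moved apart in parent cells. UBTF binds along the ribosomal DNA (chr17:42282401-42298994). It had 194, 229 and 242 CPM in parent cells with prexasertib and 169, 180.1 and 179 CPM in parent cells with DMSO, with no overlap. RRN3 joins the polymerase to its promoter (chr16:15153879-15188174). It had 72.2, 83.3 and 82.0 CPM in parent cells with prexasertib and 114, 106 and 108 CPM in parent cells with DMSO. Again the groups did not overlap, but here the treated libraries were the lower ones. The log2 fold change was 0.33 ± 0.06 for UBTF (edgeR adjusted p = 7.01e-05) and -0.47 ± 0.06 for RRN3 (adjusted p = 1.51e-07).

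In knockout cells UBTF had 191, 197 and 193 CPM with prexasertib and 182, 184 and 187 CPM with DMSO, with no overlap. RRN3 had 83.0, 81.2 and 84.7 CPM with prexasertib and 85.5, 82.0 and 87.3 CPM with DMSO, and its groups overlapped. Neither passed the test in knockout cells (edgeR adjusted p = 0.523 and 0.778). The exons of both overlap other annotated genes. All exonic reads of RRN3 also lie in PDXDC1, and 10.9% of those of UBTF lie outside other genes. On reads outside other genes, UBTF in parent cells was higher by 0.37 ± 0.06 on the log2 scale and PDXDC1 by 0.28 ± 0.04 (adjusted p = 1.46e-05). RRN3 has no reads of that kind, so its lower value rests on reads shared with PDXDC1. Without a stated strand setting, reads of overlapping genes cannot be told apart.

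**Figure D4:**
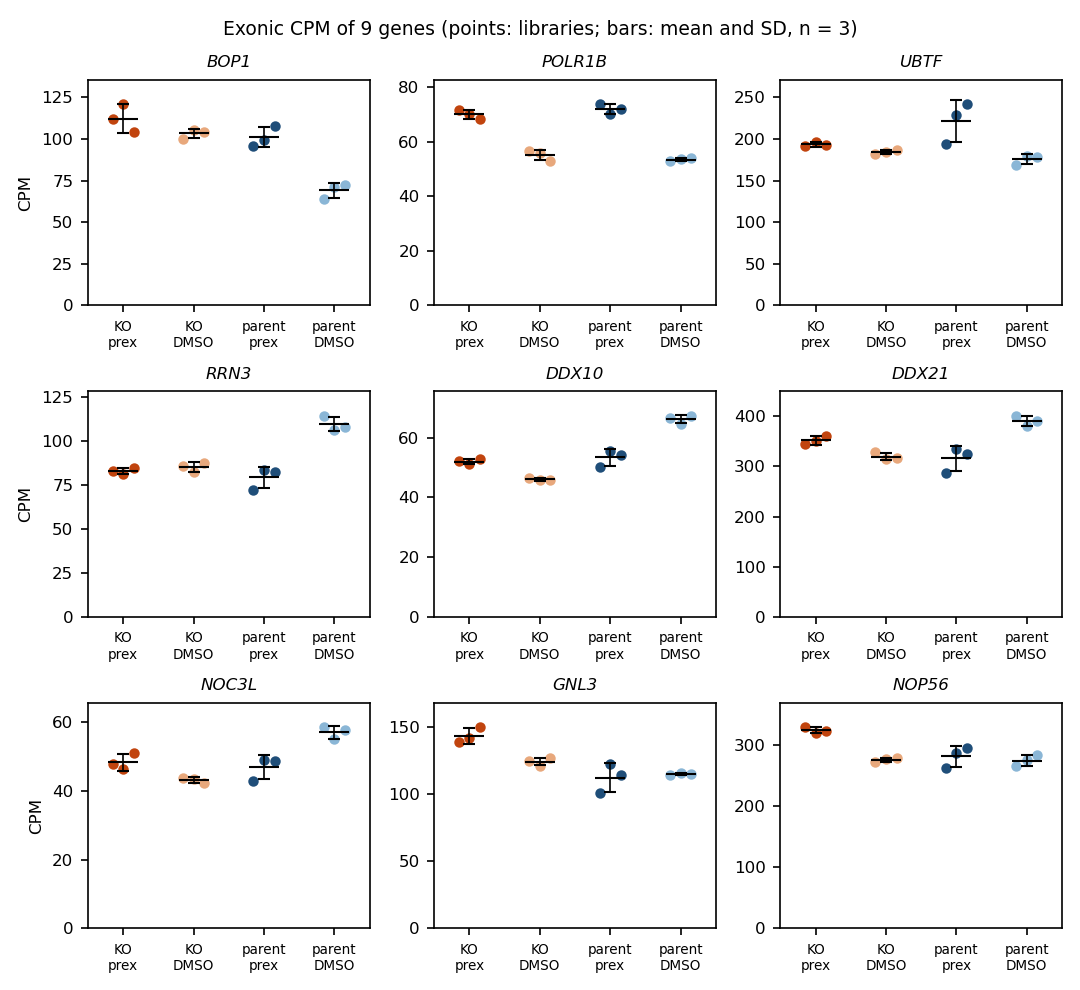
Exonic CPM of 9 genes by group, with knockout cells left of parent cells and prexasertib left of DMSO within each line; points are libraries, and bars give the mean and SD (n = 3). POLR1B is higher with prexasertib in both lines, whereas RRN3, DDX10, DDX21 and NOC3L are highest, and BOP1 lowest, in parent cells with DMSO.

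Of the 4 box C/D proteins, 2 were higher and 1 lower in parent cells, and 2 were higher in knockout cells. FBL, fibrillarin, is the methyltransferase of the complex. It had 101, 107 and 111 CPM in parent cells with prexasertib and 87.9, 96.5 and 90.1 CPM in parent cells with DMSO, with no overlap (log2 fold change 0.22 ± 0.05, edgeR adjusted p = 0.00121). Fibrillarin had 96.3, 92.6 and 91.6 CPM in knockout cells with prexasertib and 92.4, 90.8 and 93.1 CPM with DMSO, and the groups overlapped. NOP56, a scaffold protein of the complex, showed the other pattern. It had 329.9, 321 and 324 CPM in knockout cells with prexasertib and 272, 278 and 278 CPM in knockout cells with DMSO, with no overlap. In parent cells it had 262, 288 and 296 CPM with prexasertib and 266, 275 and 284 CPM with DMSO, and the groups overlapped. Its log2 fold change was 0.24 ± 0.05 in knockout cells (adjusted p = 0.00207) and 0.04 ± 0.05 in parent cells (adjusted p = 0.635). The difference of the 2 effects, -0.20 ± 0.07, missed the threshold (adjusted p = 0.0562).

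NOP58, the second scaffold protein, had 115, 142 and 139 CPM in parent cells with prexasertib and 171, 163 and 166 CPM in parent cells with DMSO. It fell there, at a log2 fold change of -0.34 ± 0.06 (edgeR adjusted p = 7.83e-05), with no overlap. Knockout cells had 134, 139 and 145 CPM with prexasertib and 149.5, 143 and 143 CPM with DMSO, and its value of -0.05 did not pass. RRP9 binds the U3 snoRNA of that class. It was called higher in both lines, by 0.22 in parent cells (adjusted p = 0.0225) and 0.23 in knockout cells (adjusted p = 0.0489). These calls were near the threshold and were lost in 6 and 7 of the 12 fits that left out 1 library.

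Of the 4 box H/ACA proteins, 2 were higher in parent cells, and none was called in knockout cells, where 2 were higher at an unadjusted p of 0.05. DKC1, dyskerin, is the pseudouridine synthase of the complex. It had 124, 145 and 143 CPM in parent cells with prexasertib and 109.6, 109 and 108 CPM in parent cells with DMSO, with no overlap (log2 fold change 0.34 ± 0.05, edgeR adjusted p = 1.43e-05). The knockout libraries had 149, 152 and 155 CPM with prexasertib and 137, 137 and 135 CPM with DMSO. These groups did not overlap either, but the value of 0.16 ± 0.05 missed the threshold (adjusted p = 0.0538) and passed it without replicate 1 of parent cells with prexasertib (adjusted p = 5.31e-04). NHP2, a small RNA-binding partner, had 31.8, 38.4 and 39.8 CPM in parent cells with prexasertib and 27.3, 29.8 and 29.1 CPM in parent cells with DMSO. It was higher by 0.35 ± 0.07 (adjusted p = 2.13e-04). NOLC1, a nucleolar chaperone of snoRNPs, and GAR1, the third small protein of the complex, passed in neither line.

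Of the 5 abundant nucleolar proteins, 0 were higher and 1 lower in parent cells, and 1 was higher in knockout cells. DDX21 had 287, 335 and 326 CPM in parent cells with prexasertib and 402, 381 and 391 CPM in parent cells with DMSO, with no overlap. It fell, at a log2 fold change of -0.31 ± 0.05 (edgeR adjusted p = 5.13e-05). Knockout libraries had 344, 351 and 362 CPM with prexasertib and 328, 315 and 316 CPM with DMSO, where the treated libraries were the higher ones and the value of 0.14 ± 0.05 missed the threshold (adjusted p = 0.0923). GNL3, nucleostemin, is a GTPase that shuttles through the nucleolus. It had 139, 142 and 149.9 CPM in knockout cells with prexasertib and 125, 121 and 127 CPM in knockout cells with DMSO, with no overlap (log2 fold change 0.21 ± 0.06, adjusted p = 0.0146). In parent cells it had 101, 122 and 114 CPM with prexasertib and 114, 116 and 115 CPM with DMSO, and the groups overlapped. The knockout call was lost without replicate 2 of knockout cells with DMSO and without replicate 3 of knockout cells with prexasertib (adjusted p up to 0.0655).

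The 2 most abundant of these proteins did not pass. NCL had 711, 1077 and 1099 CPM in parent cells with prexasertib and 845, 873 and 873 CPM in parent cells with DMSO. The first of the treated libraries lay below all untreated ones and the other 2 lay above them (log2 fold change 0.16 ± 0.14, edgeR adjusted p = 0.423). In knockout cells NCL had 1162, 1165 and 1187 CPM with prexasertib and 1071, 1046 and 1085 CPM with DMSO, with no overlap, at 0.13 ± 0.13 (adjusted p = 0.629). Without that first parent library, NCL was called higher in parent cells (log2 fold change 0.31, adjusted p = 1.91e-09) and in knockout cells (0.14, adjusted p = 6.79e-04). NPM1 had 363, 437 and 433 CPM in parent cells with prexasertib and 421, 393 and 409 CPM in parent cells with DMSO, with overlap, and 0.01 on the log2 scale. LYAR, a zinc finger protein of the nucleolus, was at -0.04 in parent cells and -0.01 in knockout cells, neither past the threshold.

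Of the 8 small subunit factors, 2 were higher and 2 lower in parent cells, and 2 were higher in knockout cells. DDX10, an RNA helicase (chr11:108535752-108811657), was the 1 gene of the 39 called in opposite directions in the 2 lines with all libraries in the fit. It had 50.3, 55.6 and 54.3 CPM in parent cells with prexasertib and 66.4, 64.7 and 67.3 CPM in parent cells with DMSO. Its level in knockout cells was 52.0, 51.0 and 52.8 CPM with prexasertib and 46.6, 45.9 and 45.7 CPM with DMSO. Neither pair overlapped, with the treated libraries lower in parent cells and higher in knockout cells. The log2 fold change was -0.31 ± 0.05 in parent cells (edgeR adjusted p = 2.43e-05) and 0.17 ± 0.05 in knockout cells (adjusted p = 0.0249). The knockout call was lost in 4 of the 12 fits that left out 1 library, and with intronic reads added the value was 0.02 (adjusted p = 0.895). Without replicate 1 of parent cells with prexasertib, DDX21 was also called in opposite directions, at -0.27 in parent cells (adjusted p = 2.36e-07) and 0.14 in knockout cells (adjusted p = 0.00122). So was NOC3L, at -0.25 in parent cells (adjusted p = 1.74e-04) and 0.17 in knockout cells (adjusted p = 0.00772).

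HEATR1, a large scaffold of the early small subunit particle, was higher in parent cells by 0.25 ± 0.05 (edgeR adjusted p = 9.83e-05), and its value in knockout cells, 0.10, did not pass (adjusted p = 0.171). BYSL, bystin, was higher in parent cells by 0.20 ± 0.06 (adjusted p = 0.0086), a call lost without replicate 1 of parent cells with DMSO (adjusted p = 0.148). UTP20 was higher in knockout cells by 0.16 ± 0.05 (adjusted p = 0.023), a call lost in 4 of the 12 fits that left out 1 library. NOC4L was lower in parent cells, at -0.21 (adjusted p = 0.0466), a call lost in 6 of them. NOP14, RRP12 and TSR1 passed in neither line.

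Of the 12 large subunit factors, 6 were higher and 1 lower in parent cells, and none was called in knockout cells, where 1 was higher at an unadjusted p of 0.05. BOP1, PES1 and WDR12 form the PeBoW complex, which is needed to mature the large subunit RNAs, and all 3 were called higher in parent cells. BOP1 had 95.95, 99.5 and 108 CPM in parent cells with prexasertib and 64.2, 71.1 and 72.4 CPM in parent cells with DMSO, with no overlap. Knockout cells had 112, 121 and 104 CPM with prexasertib and 100.2, 106 and 104 CPM with DMSO, and the groups overlapped. Its log2 fold change was 0.55 ± 0.06 in parent cells (edgeR adjusted p = 5.37e-08), the largest of the 39 in these libraries, and 0.12 ± 0.06 in knockout cells (adjusted p = 0.227). WDR12 was at 0.19 ± 0.05 (adjusted p = 0.00742) and PES1 at 0.19 ± 0.07 (adjusted p = 0.0313) in parent cells. The WDR12 call was lost in 3 and the PES1 call in 8 of the 12 fits that left out 1 library.

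NOP16, a factor of the early large subunit particle, had 23.1, 24.2 and 23.0 CPM in parent cells with prexasertib and 17.2, 17.9 and 18.4 CPM in parent cells with DMSO. In knockout cells it had 23.2, 23.3 and 21.5 CPM with prexasertib and 20.9, 21.1 and 22.2 CPM with DMSO. The parent groups did not overlap and the knockout groups did (log2 fold change 0.40 ± 0.06 in parent cells, edgeR adjusted p = 1.20e-05). All its exonic reads also lie in other annotated genes, HIGD2A or ARL10, so its reads cannot be told apart from theirs. NOC2L and NOC3L belong to factors that escort pre-ribosomes out of the nucleolus. NOC3L fell in parent cells, with 42.9, 49.0 and 48.8 CPM with prexasertib and 58.5, 55.0 and 57.5 CPM with DMSO, and no overlap. It had 47.7, 46.2 and 51.0 CPM in knockout cells with prexasertib and 43.9, 43.5 and 42.1 CPM in knockout cells with DMSO, with the treated libraries higher. The log2 fold change of NOC3L was -0.28 ± 0.06 in parent cells (adjusted p = 3.39e-04) and 0.16 ± 0.06 in knockout cells (adjusted p = 0.0676).

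NOC2L went the other way in parent cells. It had 136, 158 and 162 CPM with prexasertib and 116, 134 and 133 CPM with DMSO in parent cells, with no overlap (log2 fold change 0.25 ± 0.06, edgeR adjusted p = 0.00281). In knockout cells it had 154, 159 and 142 CPM with prexasertib and 155, 158 and 160.4 CPM with DMSO, with overlap. The parent call was lost without replicate 1 of parent cells with DMSO (adjusted p = 0.0681). RRS1, which helps to place the 5S particle, was higher in parent cells by 0.23 ± 0.08 (adjusted p = 0.0193), a call lost in 5 of the 12 fits that left out 1 library. NOP2, DDX18, PPAN, MRTO4 and NIP7 passed in neither line, with log2 fold changes between -0.12 and 0.13 in parent cells.

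Other calls changed when replicate 1 of parent cells with prexasertib was left out. In parent cells NOLC1 at 0.12 (edgeR adjusted p = 0.01), PPAN at 0.15 (adjusted p = 0.0271) and MRTO4 at 0.15 (adjusted p = 0.0042) then passed, and NOC4L at -0.16 (adjusted p = 0.108) did not. In knockout cells NOLC1 at 0.14 (adjusted p = 0.0018), POLR1E at 0.15 (adjusted p = 0.0217), HEATR1 at 0.11 (adjusted p = 0.0273) and BYSL at 0.15 (adjusted p = 0.0301) also passed. Their values in knockout cells moved by less than 0.01 on the log2 scale from the fit to all libraries, and their adjusted p-values there had been 0.0814, 0.0789, 0.171 and 0.102.

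Whether prexasertib acted differently in the 2 lines was tested as the parent effect less the knockout effect. The test called 4 of 39 genes above 0, against 7.32% of all genes tested, and 6 below 0, against 9.53% of all genes. Among genes with at least 10 CPM, 30.4% were called in either direction. Above 0 were BOP1 at 0.43 ± 0.09 (edgeR adjusted p = 7.04e-04), NOP16 at 0.31 ± 0.09 (adjusted p = 0.0132), NOC2L at 0.31 ± 0.09 (adjusted p = 0.0179) and UBTF at 0.26 ± 0.08 (adjusted p = 0.0324). Below 0 were DDX10 at -0.48 ± 0.07 (adjusted p = 2.61e-05), DDX21 at -0.45 ± 0.08 (adjusted p = 1.30e-04), NOC3L at -0.44 ± 0.08 (adjusted p = 3.26e-04), RRN3 at -0.43 ± 0.08 (adjusted p = 2.36e-04), NOP58 at -0.28 ± 0.09 (adjusted p = 0.0237) and GNL3 at -0.24 ± 0.08 (adjusted p = 0.0386). For POLR1B, called higher in both lines, the difference was 0.08 ± 0.07 and did not pass (adjusted p = 0.468).

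The calls of BOP1, DDX10, DDX21, NOC3L and RRN3 held in each of the 12 fits that left out 1 library. Those of the other 5 did not: UBTF was lost in 11 fits, GNL3 in 6, NOC2L in 5, NOP16 in 3 and NOP58 in 2. Without replicate 1 of parent cells with prexasertib, 9 genes were above 0 (9.05% of all genes) and 7 below (12.3%). The genes gained were NCL at 0.17, DKC1 at 0.22, NHP2 at 0.34, FBL at 0.20 and PES1 at 0.23 above 0 and NOP56 at -0.18 below 0 (edgeR adjusted p from 0.00117 to 0.0177). The count above 0 was 2 without replicate 3 of parent cells with prexasertib (6% of all genes) or replicate 2 of knockout cells with DMSO (4.28%). It was 1 without replicate 1 of parent cells with DMSO (4.02%), replicate 3 of knockout cells with DMSO (4.99%) or replicate 3 of knockout cells with prexasertib (4.49%). On the TPM scale it was 12 (12.6% of all genes), with 4 below 0 (4.89%).

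Knockout and parent cells were also compared under each treatment. Under DMSO, 9 of 39 genes were higher in knockout cells, against 19.6% of all genes tested, and 9 were lower, against 20.4% of all genes, while on the TPM scale 29 were higher (39.9% of all genes) and 1 lower (7.95%). Among genes with at least 10 CPM, 58.1% were called in either direction. The median log2 fold change of the 39 was 0.06. Knockout libraries lay wholly above parent libraries for 16 of the 39 (26.6% of all genes) and wholly below for 11 (27%). The largest increases were those of BOP1, at 0.58 ± 0.06 (edgeR adjusted p = 1.60e-08), NHP2, at 0.41 ± 0.07 (adjusted p = 2.94e-05), and DKC1, at 0.33 ± 0.05 (adjusted p = 1.64e-05). BOP1 averaged 103 ± 2.85 CPM in knockout cells with DMSO and 69.2 ± 4.41 CPM in parent cells with DMSO (SD, n = 3 each). Among the decreases, DDX10 averaged 46.1 ± 0.499 CPM in knockout cells and 66.2 ± 1.37 CPM in parent cells, at -0.52 ± 0.05 (adjusted p = 5.48e-09). NOC3L followed at -0.40 ± 0.06 (adjusted p = 2.93e-06) and RRN3 at -0.37 ± 0.05 (adjusted p = 5.21e-06). These libraries of parent cells with DMSO also enter the prexasertib comparison in parent cells, so the 2 sets of values share a group. When replicate 1 of parent cells with prexasertib, a library of neither group, was left out, NCL at 0.28 (adjusted p = 9.46e-10) also passed, as did NOP2 at -0.11, NOC4L at -0.19 and POLR1A at -0.12 (adjusted p from 0.0154 to 0.0242).

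Under prexasertib, 7 genes were higher in knockout cells, against 14.5% of all genes tested, and 7 were lower, against 13.5% of all genes, while on the TPM scale 20 were higher (27.6% of all genes) and 0 lower (5.76%). Among genes with at least 10 CPM, 39.6% were called in either direction. The median log2 fold change of the 39 was 0.04. Knockout libraries lay wholly above parent libraries for 12 of the 39 (19.4% of all genes) and wholly below for 7 (18.6%). Higher were GNL3, at 0.35 ± 0.06 (edgeR adjusted p = 3.35e-05), TSR1, a GTPase-like factor of late small subunit particles, at 0.24 ± 0.06 (adjusted p = 0.00207), and NOP56, at 0.21 ± 0.05 (adjusted p = 0.0031). TSR1 had 124, 122 and 129 CPM in knockout cells with prexasertib and 94.8, 114 and 108 CPM in parent cells with prexasertib, with no overlap. BYSL, NPM1, DDX21 and DKC1 were also higher, by 0.15 to 0.22. Of these, BYSL was lost in 1 of the 12 fits that left out 1 library (without replicate 2 of knockout cells with prexasertib), NPM1 in 1 (without replicate 3 of that group), DDX21 in 5 and DKC1 in 6. NOP14 had 55.6, 56.2 and 55.7 CPM in knockout cells with prexasertib and 62.6, 65.2 and 68.7 CPM in parent cells with prexasertib, again with no overlap. It was lower, at -0.23 ± 0.05 (adjusted p = 0.00124), as was RRP12, a factor of subunit export, at -0.27 ± 0.06 (adjusted p = 0.00209). RRP12 had 55.2, 50.5 and 47.6 CPM in knockout cells with prexasertib and 60.9, 62.5 and 61.1 CPM in parent cells with prexasertib, with no overlap. The count of higher genes was 11 without replicate 3 of parent cells with prexasertib (13.9% of all genes) and 4 without replicate 2 of knockout cells with prexasertib (12.1%). With replicate 1 of parent cells with prexasertib left out, DKC1 at 0.08 (adjusted p = 0.1) and POLR1A at -0.10 (adjusted p = 0.0988) lost their calls. NCL at 0.11 then passed, and so did PES1 at -0.18, RRS1 at -0.19 and PPAN at -0.16 (adjusted p from 0.0101 to 0.0255).

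Of the 6 RNA polymerase I genes, 3 were called lower in knockout cells under DMSO (20.4% of all genes) and 4 under prexasertib (13.5%). Of the 3, POLR1C and POLR1E change sign on the TPM scale, where limma called POLR1E higher (0.12, adjusted p = 0.0194). Among genes with at least 10 CPM, 58.1% under DMSO and 39.6% under prexasertib were called in either direction. The 9 polymerase I genes outside the 39 did not run in 1 direction. Of them 1 was higher and 2 lower under DMSO, and 3 were higher and 2 lower under prexasertib. On exonic reads 0 of the 6 were called higher in either comparison by edgeR, also at an unadjusted p of 0.05, while on intronic reads POLR1A and UBTF were called higher under DMSO. POLR1E had 31.8, 31.2 and 32.3 CPM in knockout cells with DMSO and 34.4, 35.4 and 36.3 CPM in parent cells with DMSO. It had 35.9, 34.7 and 34.8 CPM in knockout cells with prexasertib and 39.04, 42.4 and 40.8 CPM in parent cells with prexasertib. Neither pair overlapped, at -0.15 ± 0.05 under DMSO (edgeR adjusted p = 0.0233) and -0.21 ± 0.05 under prexasertib (adjusted p = 0.00356). POLR1C was lower under both, at -0.21 under DMSO and -0.18 under prexasertib, RRN3 under DMSO alone of the 2 tests, and POLR1A and UBTF under prexasertib alone, at -0.21 and -0.20. Without replicate 3 of parent cells with DMSO, the DMSO calls of POLR1C (adjusted p = 0.1) and POLR1E (adjusted p = 0.107) were lost. Under prexasertib the call of POLR1C was lost in 9, that of POLR1A in 6 and that of UBTF in 3 of the 12 fits that left out 1 library. Of the 39 genes, 4 were lower under both treatments (NOP14, RRP12, POLR1C and POLR1E) and 3 were higher under both (BYSL, NPM1 and DKC1). The share of all genes called under both was not counted. On the TPM scale the DMSO values of RRP12, POLR1C and POLR1E turned. NOP14 lost both calls there, at -0.05 under DMSO and -0.07 under prexasertib, and 0 of the 39 genes were called lower under prexasertib.

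These directions depended on the scaling. On the deposited TPM scale the median of the 10096 genes with at least 10 CPM moved up by 0.26 under DMSO and 0.14 under prexasertib in the comparison of knockout with parent cells, by 0.13 for prexasertib in parent cells and by 0.02 in knockout cells. The TPM values were tested with limma on log2(TPM + 1). Of all calls on that scale, 83.4% were higher in knockout cells under DMSO, against 49.0% on the CPM-based scale, and 82.7% under prexasertib, against 51.8%. Under DMSO, POLR1C then stood at 0.061 and POLR1E at 0.12, RRP12 at 0.061 and NOP58 at 0.079, opposite in sign to the CPM-based values. Each of these 4 values was below the median shift of 0.26. For prexasertib in parent cells, 71.8% of all calls on the TPM scale were higher, against 49.95% on the CPM-based scale. For the difference between the lines the shift was 0.12, and 72.03% of all calls were above 0, against 43.4%.

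**Figure D5:**
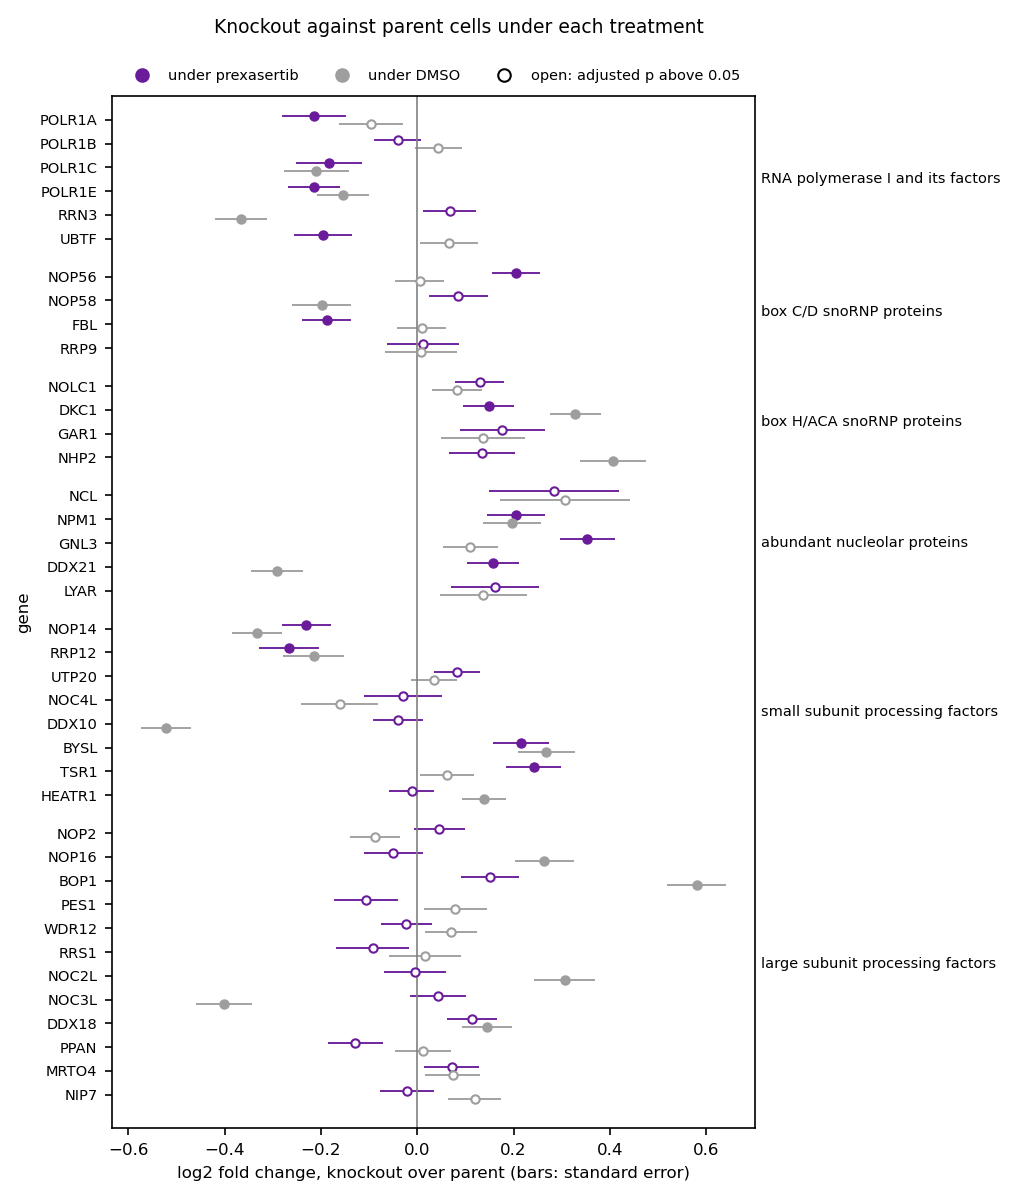
Log2 fold change of knockout over parent cells for the 39 genes, by role, under prexasertib (purple) and DMSO (grey), with standard errors; filled points passed an adjusted p of 0.05. These are exonic reads. Among the RNA polymerase I genes no filled point lies above 0. POLR1C and POLR1E under DMSO change sign on the TPM scale, where POLR1E is called higher. BOP1 (0.58) and DDX10 (-0.52) are the extremes under DMSO.

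Intronic reads give a second view of the same libraries, from RNA that still holds introns. For 38 of the 39 genes they could be tested, since RRS1 has no intron. With prexasertib 10 were higher and 2 lower in parent cells, where 30.8% of all genes tested on introns were called in either direction. For knockout cells the counts were 3 higher and 1 lower, against 12% of all genes. In parent cells 8 genes had the same call on exonic and intronic reads, which were NOP16, BOP1, DDX21, POLR1A, POLR1B, POLR1E, UBTF and BYSL, and 1, WDR12, had opposite calls. The share of all genes with the same or opposite calls on both kinds of read was not counted. WDR12 has 130920 intronic bases in a span that overlaps CARF, AC010900.2 and RP11-544H14.1, so its intronic reads may include theirs. POLR1B introns had 40.9, 43.7 and 42.0 CPM in parent cells with prexasertib and 29.02, 30.1 and 31.2 CPM in parent cells with DMSO. In knockout cells they had 36.4, 39.8 and 39.7 CPM with prexasertib and 28.0, 30 and 33.5 CPM with DMSO. POLR1B was the 1 gene with the same call on both kinds of read in knockout cells, at 0.34 ± 0.09 (edgeR adjusted p = 0.011), and it was at 0.49 ± 0.09 in parent cells (adjusted p = 1.71e-04).

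DDX21 introns had 64.8, 82.0 and 80.2 CPM in parent cells with prexasertib and 100.0, 104 and 108 CPM in parent cells with DMSO, a log2 fold change of -0.46 ± 0.08 (edgeR adjusted p = 1.64e-04). RRN3 and DDX10, both lower in parent cells on exonic reads, were at -0.23 ± 0.09 (adjusted p = 0.0728) and -0.02 ± 0.08 (adjusted p = 0.88) on intronic reads. Within the spans of 8 of the 39 genes lie 24 annotated snoRNA genes, whose reads can add to these counts. The 8 hosts are NOP56, NOP58, NCL, DKC1, UTP20, GNL3, PPAN and TSR1. The intron count depended on single libraries: without replicate 1 of parent cells with prexasertib, 17 genes were higher in parent cells (16% of all genes) and 7 in knockout cells (11.4%). In knockout cells 0 were higher without replicate 1 or replicate 2 of cells with DMSO, or without replicate 2 or replicate 3 of cells with prexasertib, and 1 without replicate 3 of cells with DMSO, where 3.14% to 3.52% of all genes were called higher.

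The lines also differed on introns. Under DMSO, BOP1, NOC2L, GNL3, POLR1A, UBTF, BYSL and TSR1 were higher in knockout cells and DDX21, DDX10 and PPAN were lower, so 10 of 38 were called, against 30.3% of all genes in either direction. Of the 10, 3 (GNL3, TSR1 and PPAN) host snoRNA genes. Under prexasertib NCL, GNL3, BYSL and TSR1 were higher and DDX10 was lower, so 5 of 38 were called, against 18.8% of all genes. Of the 5, 3 (NCL, GNL3 and TSR1) host snoRNA genes. UBTF introns had 42.4, 41.3 and 46.1 CPM in knockout cells with DMSO and 29.7, 35.7 and 36.5 CPM in parent cells with DMSO, with no overlap. POLR1A introns had 69.7, 73.0 and 69.8 CPM in knockout cells with DMSO and 59.6, 61.3 and 57.6 CPM in parent cells with DMSO. These groups did not overlap either. UBTF was at 0.35 ± 0.11 (edgeR adjusted p = 0.0149) and POLR1A at 0.25 ± 0.08 (adjusted p = 0.0279), whereas on exonic reads POLR1A stood at -0.10 and neither gene passed. The intronic call of POLR1A was lost in 5 and that of UBTF in 2 of the 12 fits that left out 1 library. Under prexasertib UBTF was at 0.12 ± 0.10 and POLR1A at -0.04 ± 0.08, and neither passed, so the lower exonic values of both genes under prexasertib were not called on introns. DDX10 introns were at -0.27 ± 0.08 under DMSO (adjusted p = 0.013) and -0.47 ± 0.08 under prexasertib (adjusted p = 2.11e-04), where the exonic value was -0.04. The DMSO count of higher genes was 3 without replicate 3 of knockout cells with DMSO (2297 of 20557 genes tested), and the count of lower genes was 7 without replicate 1 of parent cells with prexasertib (20.4% of all genes) and 1 without replicate 1 of knockout cells with DMSO (2463 of 20184). Under prexasertib 2 were lower without replicate 3 of parent cells with DMSO (8.72%) and 4 without replicate 1 of parent cells with prexasertib (9.78%).

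Genes of the same pathway outside the 39 were read in the same way. Of 121 other ribosome biogenesis genes, 31 were higher and 21 lower with prexasertib in parent cells (18.2% and 18.2% of all genes). In knockout cells 14 were higher and 4 lower (6.11% and 6.83% of all genes). Among genes with at least 10 CPM, 57.7% in parent and 22.2% in knockout cells were called in either direction. The median log2 fold change of the 121 was 0.01 in parent cells and 0.04 in knockout cells. RRP1B and URB2, large subunit factors, were higher in parent cells by 0.51 ± 0.05 and 0.51 ± 0.05, and in knockout cells by 0.22 ± 0.05 and 0.30 ± 0.05. UTP11L, a small subunit factor, was higher in parent cells by 0.62 ± 0.06 (edgeR adjusted p = 5.28e-09). Among those that fell in parent cells were ZNF622, at -0.71 ± 0.07, and SBDS, at -0.62 ± 0.07, which act late on the large subunit. TTF1, which ends polymerase I transcription, was lower in parent cells, at -0.41 ± 0.05 (adjusted p = 1.18e-06). TAF1C, a subunit of the polymerase I promoter selectivity factor, was lower in both lines, at -0.30 ± 0.07 in parent cells and -0.32 ± 0.07 in knockout cells (adjusted p = 0.00107 and 0.00287). CD3EAP, a subunit of the polymerase itself, was higher in parent cells by 0.29 ± 0.07, and so was TCOF1, the treacle protein of the nucleolus, by 0.40 ± 0.06. In the comparison of the lines, 29 of the 121 were higher and 23 lower in knockout cells under DMSO (19.6% and 20.4% of all genes). Under prexasertib 28 were higher and 11 lower (14.5% and 13.5% of all genes).

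The counts of the next lists stand beside 18.2% of all genes higher and 18.2% lower in parent cells, and 6.11% and 6.83% in knockout cells. Of 78 cytosolic ribosomal protein genes, edgeR called 6 higher and 0 lower with prexasertib in parent cells, where 1 was lower at an unadjusted p of 0.05. In knockout cells edgeR called 0 in either direction, and 1 was higher and 1 lower at an unadjusted p of 0.05. Of 12 RNA polymerase II subunits, 4 were higher and 2 lower in parent cells and 1 was lower in knockout cells. Of 20 genes of RNA polymerase III and its factors, 7 were higher and 6 lower in parent cells, with POLR3C at -0.76 ± 0.06, and 1 was higher in knockout cells. Of 8 genes of MYC and its partners, 4 were higher and 2 lower in parent cells, and 1 was higher and 1 lower in knockout cells. MYC had 136, 147 and 149.8 CPM in parent cells with prexasertib and 97.3, 109 and 101 CPM in parent cells with DMSO. It had 139, 149 and 137 CPM in knockout cells with prexasertib and 115, 121 and 118 CPM in knockout cells with DMSO. It was higher without overlap in both lines, by 0.50 ± 0.05 in parent cells (edgeR adjusted p = 4.04e-08) and 0.26 ± 0.05 in knockout cells (adjusted p = 0.00139). MXD1, which opposes MYC at the same sites, was lower in parent cells, at -1.41 ± 0.06 (adjusted p = 1.48e-15).

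MYC and its partners bind the E-box CACGTG, so the RefSeq promoters (GRCh38.p14, 250 bases before to 50 after each start) were searched for these letters, which read the same on both strands. Of the 39 genes, 32 matched a promoter, with 41 starts. Of these 32 genes, 13 (40.6%) held at least 1 E-box, against 2396 of 27305 genes with a promoter (8.77%), which had 35116 starts. Promoters of the 39 genes were richer in G and C (median 65.7% against 58.7%). Among promoters with at least 60% G and C, 9 of 23 of these genes (39.1%) and 11.4% of all genes held an E-box. By the calls in parent cells, an E-box was held by 4 of 13 genes called higher (30.8%), 2 of 5 called lower (40.0%) and 7 of 14 not called. Whether the motif bears on the calls was not tested. A match is a description of the letters and not a bound site.

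The sequences here are 110 bases, from 80 before to 30 after the start, of 6 genes with an E-box that passed a test above, and of POLR1B and RRN3, whose windows hold none, with the E-box in capitals. FBL lies at chr19:39846350-39846459 (minus strand), RRP9 at chr3:51941875-51941984 (minus strand), UTP20 at chr12:101280025-101280134 (plus strand), NOC3L at chr10:94362910-94363019 (minus strand), GNL3 at chr3:52685952-52686061 (plus strand), DDX21 at chr10:68956567-68956676 (plus strand), POLR1B at chr2:112541956-112542065 (plus strand) and RRN3 at chr16:15094306-15094415 (minus strand), all in GRCh38.p14.
FBL: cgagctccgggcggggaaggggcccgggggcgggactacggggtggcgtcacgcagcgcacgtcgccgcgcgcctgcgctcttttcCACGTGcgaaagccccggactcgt
RRP9: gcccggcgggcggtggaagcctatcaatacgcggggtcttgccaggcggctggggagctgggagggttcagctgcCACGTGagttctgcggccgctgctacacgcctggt
UTP20: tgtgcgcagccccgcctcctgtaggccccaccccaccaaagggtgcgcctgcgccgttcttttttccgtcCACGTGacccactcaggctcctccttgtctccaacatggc
NOC3L: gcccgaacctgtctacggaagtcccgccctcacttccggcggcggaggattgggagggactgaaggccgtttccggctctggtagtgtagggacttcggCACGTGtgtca
GNL3: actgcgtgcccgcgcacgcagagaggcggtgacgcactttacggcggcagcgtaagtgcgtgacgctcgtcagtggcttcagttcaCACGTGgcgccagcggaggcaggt
DDX21: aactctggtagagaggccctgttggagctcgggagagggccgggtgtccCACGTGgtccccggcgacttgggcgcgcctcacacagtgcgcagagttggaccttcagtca
POLR1B: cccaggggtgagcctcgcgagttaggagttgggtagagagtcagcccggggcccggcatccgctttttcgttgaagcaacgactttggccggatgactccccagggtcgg
RRN3: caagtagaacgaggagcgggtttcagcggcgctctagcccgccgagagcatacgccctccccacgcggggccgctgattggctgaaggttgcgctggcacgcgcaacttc
The first base of the E-box lies at position 7 of the transcript of FBL, 7 of that of GNL3 and 20 of that of NOC3L, and 5 bases before the start of RRP9, 10 before that of UTP20 and 31 before that of DDX21. NOC3L and DDX21 fell with prexasertib in parent cells, FBL and RRP9 were higher there, and UTP20 and GNL3 were higher in knockout cells. PES1, BYSL and NOP14 also held an E-box and passed a test above, and their sequences are not shown.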

How the data were processed

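RNA of 12 samples was sequenced, and the deposited files give, per gene, raw counts of reads in exons and in introns. Per the file headers they also hold the authors' TPM values, from the same reads per length. Per the submitters' processing notes Picard 2.9.2, STAR 2.5.4a, Trimmomatic 0.39 and Trim Galore 0.6.2 were used with build hg19. The counter, annotation and strand setting are not given in the sources used here. Where genes overlap, a read in the shared region was added to each of them. All exonic reads of NOP16, RRN3, PPAN and NIP7 also lie in other genes, and 59.0% of those of NHP2, 63.7% of TSR1, 71.9% of RRS1 and 84.6% of HEATR1 lie outside other genes.

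From the counts, 36 Y copies of pseudoautosomal genes were left out of 44183 features. One edgeR 4.0.16 quasi-likelihood model (R 4.3.3) was fitted to the 4 groups with TMM factors and edgeR's filter (minimum count of 10), for 23045 genes on exonic and 19852 on intronic reads, with 5 contrasts and Benjamini-Hochberg adjustment over all genes. Calls are two-sided at 0.05. CPM use TMM-scaled library sizes. Alternatives were DESeq2 1.42.0, limma 3.58.1 on TPM, other scaling, filters, read sets and groups in the fit, a replicate block and leaving out each library. The model was tested on simulated data, with 50 genes per fold change drawn from all genes tested. Of 1.25-fold changes it recovered 12% in the difference between the lines, 22% for prexasertib in knockout cells and 28% in parent cells. For knockout against parent cells it recovered 38% under DMSO and 24% under prexasertib. Of 4-fold changes it recovered 72% to 94%. False calls were 16 of 142 for the lines under DMSO, 7 of 111 for prexasertib in parent cells and 6 in each other contrast. The members, the lists and the genes named were chosen with earlier results of these data known. Values by library are given for a set of genes across the roles and for the 3 genes with the smallest p in each direction of a contrast, and of other lists the 2 with the smallest p may be named. With 47887791 to 77548202 exonic reads per library, spread between libraries exceeded counting noise.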

Additional observations from a re-analysis of the deposited data

Results flagged for a closer look

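For 10 of the 39 genes the prexasertib effect differed between the lines by edgeR's interaction term, taken as the parent effect less the knockout effect (log2). Of all genes tested, 7.32% were called above 0 and 9.53% below. Among genes with at least 10 CPM, 30.4% were called in either direction. Of the 10 calls, 5 held in each of the 12 fits that left out 1 library. Those of UBTF, GNL3, NOC2L, NOP16 and NOP58 did not. The difference was -0.48 for DDX10, -0.45 for DDX21, -0.44 for NOC3L, -0.43 for RRN3, -0.28 for NOP58 and -0.24 for GNL3. It was 0.43 for BOP1, 0.31 for NOP16, 0.31 for NOC2L and 0.26 for UBTF. With all libraries in the fit, DDX10 was called in opposite directions in the 2 lines, but its knockout call was lost in 4 of the 12 fits that left out 1 library and its value there was 0.02 with intronic reads added. Without replicate 1 of parent cells with prexasertib, DDX21 (-0.27 in parent and 0.14 in knockout cells) and NOC3L (-0.25 and 0.17) were called in opposite directions too.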

How the results depend on the processing

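Of the 70 calls over the 39 genes, adding intronic reads lost 24, and limma on log2(TPM + 1) lost 17 and reversed 4 others. No filter lost 6, DESeq2's Wald test lost 3, upper-quartile factors lost 2, and a mean of at least 1 CPM lost 1. Fitting only the 2 groups compared lost 10 and kept 50, and could not cover the calls of the difference between the lines. Reads outside other genes lost 1 and kept 63. The calls of NOP16 and RRN3, which have no such reads, could not be tested there. DESeq2 size factors in edgeR lost 0. With TPM, NOP58 (0.079), POLR1C (0.061), POLR1E (0.12) and RRP12 (0.061) reversed in knockout against parent cells under DMSO. There TPM gave 29 genes higher (39.9% of all genes) and 1 lower (7.95%). Under prexasertib it gave 20 higher (27.6%) and 0 lower (5.76%), and for the difference between the lines 12 above 0 (12.6%). With intronic reads added, 10 genes were higher in parent cells with prexasertib (16% of all genes). In knockout against parent cells under prexasertib 3 were lower (12%). In the difference 1 was above 0 (4.34%) and 3 were below 0 (7.95%). In knockout cells, 11 were higher at a mean of at least 1 CPM, 12 on reads outside other genes and 15 with the 2 groups alone, which gave 14 higher in knockout cells under DMSO and 4 lower under prexasertib. Upper-quartile factors gave 8 genes above 0 in the difference (9.55% of all genes). Intronic calls lower in parent cells were 1 with DESeq2 size factors (15% of all genes), 4 with upper-quartile factors (17.2%) and 1 with no filter (9.11%). Intronic calls lower in knockout against parent cells under prexasertib were 2 each with DESeq2 size factors (9.59%), DESeq2's Wald test (10.3%) and no filter (7.81%). The cause was not tested for these.

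With 1 library left out, the counts ranged from 8 to 19 for genes higher in parent cells with prexasertib, 2 to 14 for those higher in knockout cells, 4 to 11 for those higher in knockout against parent cells under prexasertib, and 1 to 9 for those above 0 in the difference. On introns they ranged from 8 to 17 higher and 1 to 4 lower in parent cells, and from 0 to 7 higher and 0 to 3 lower in knockout cells. The alternatives for knockout against parent cells on introns were added after seeing the data. There the counts ranged from 3 to 10 higher (10.9% to 19.3% of all genes) and 1 to 7 lower (12% to 20.4%) under DMSO. Under prexasertib they ranged from 3 to 5 higher (6.59% to 10.7%) and 1 to 4 lower (5.96% to 9.87%).

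The replicate numbers did not pair the libraries: 1 of 18 same-numbered pairs correlated above 0.1 (r from -0.06 to 0.12), and 5 of 12 libraries correlated best with their own number. A replicate block lost 0 of the 70 calls. With it, 4 genes were lower in parent cells (16.4% of all genes) and 2 in knockout cells (7.02%) on introns. In knockout against parent cells under prexasertib 2 were lower on introns (9.95%).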
